A study of Homo sapiens with 12 samples.

Results

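The BCL2 family decides whether the outer membrane of the mitochondrion stays intact when a cell is stressed, and its mRNAs were followed in prostate cancer cells selected for resistance to docetaxel. The members were 10 genes taken by gene symbol from the array annotation: BCL2, BCL2L1, MCL1, BCL2A1, BAX, BAK1, BCL2L11, BID, BAD and PMAIP1. They are 10 of the 11939 genes named on the smaller of the array types used and 10 of the 19740 named on the larger one. Their probe sets, the groups of short probes that report on a transcript, numbered 24 of 22215 on the smaller type and 33 of 54613 on the larger type.

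The study compared 4 groups of 3 arrays each. DU145-DR is the docetaxel-resistant form of DU145, an established human prostate cancer line, and DU145 is its parental, sensitive form. 22Rv1-DR is the resistant form of 22Rv1, another established prostate cancer line, and 22Rv1 is its parental form. All cells were kept in RPMI with fetal bovine serum; the resistant lines were exposed to docetaxel as well and the parental lines were not, so resistance and exposure to the drug cannot be told apart. Docetaxel is a taxane, which stabilises microtubules and arrests cells in mitosis. The sources used here do not say whether a resistant line is a clone or a pool, nor whether replicates were separate cultures, so a p-value here speaks only of array-to-array spread. In bulk RNA, less RNA per cell and fewer cells that make it cannot be told apart.

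Members of the family share short BCL2 homology domains and act by binding each other. BAX and BAK1 are the effectors, which assemble into pores in the outer mitochondrial membrane and release cytochrome c. BCL2, BCL-XL (gene BCL2L1), MCL1 and BFL1/A1 (gene BCL2A1) are the anti-apoptotic members, which hold the effectors and their activators in check. BIM (gene BCL2L11), BID, BAD and NOXA (gene PMAIP1) carry only the BH3 domain and either activate the effectors or occupy the anti-apoptotic members. Cells arrested in mitosis by a taxane are known to die through this pathway, with MCL1 degraded and BIM and NOXA among the proteins that set the time of death. The arrays measure mRNA, not these protein events.

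The windows upstream of 4 members with differences between resistant and parental cells are shown: BCL2L1 and BCL2A1, which passed the test in DU145 cells, BCL2L11, with 3 probe sets lower in both lines on the larger arrays, and BAX, whose call in 22Rv1 cells turned on the model. Each window is the 250 bases before the RefSeq gene start in the GRCh38.p14 build, written 5′ to 3′ along the gene, and capitals mark matches on either strand to 7 motifs. The motifs, spelled out with their matches, were those of AP-1, the GC box, the CCAAT box, the TATA box, FOXO, STAT and the E-box. The windows are chr20:31723964-31724213 on the minus strand for BCL2L1, chr15:79971197-79971446 on the minus strand for BCL2A1, chr2:111120664-111120913 on the plus strand for BCL2L11 and chr19:48954625-48954874 on the plus strand for BAX.
BCL2L1: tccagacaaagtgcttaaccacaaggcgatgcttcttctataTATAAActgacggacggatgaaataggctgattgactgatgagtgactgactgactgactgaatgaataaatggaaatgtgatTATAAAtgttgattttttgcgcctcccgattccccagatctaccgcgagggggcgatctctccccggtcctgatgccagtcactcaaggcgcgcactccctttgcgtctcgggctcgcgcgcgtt
BCL2A1: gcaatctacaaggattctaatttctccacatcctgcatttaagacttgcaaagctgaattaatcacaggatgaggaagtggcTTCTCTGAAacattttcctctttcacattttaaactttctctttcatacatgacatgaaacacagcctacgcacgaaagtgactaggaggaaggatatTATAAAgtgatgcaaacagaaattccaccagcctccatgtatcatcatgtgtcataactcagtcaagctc
BCL2L11: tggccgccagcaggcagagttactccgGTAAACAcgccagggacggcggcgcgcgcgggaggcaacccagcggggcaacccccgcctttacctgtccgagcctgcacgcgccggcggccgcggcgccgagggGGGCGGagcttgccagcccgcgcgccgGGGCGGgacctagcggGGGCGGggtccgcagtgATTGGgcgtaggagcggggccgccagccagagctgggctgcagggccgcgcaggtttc
BAX: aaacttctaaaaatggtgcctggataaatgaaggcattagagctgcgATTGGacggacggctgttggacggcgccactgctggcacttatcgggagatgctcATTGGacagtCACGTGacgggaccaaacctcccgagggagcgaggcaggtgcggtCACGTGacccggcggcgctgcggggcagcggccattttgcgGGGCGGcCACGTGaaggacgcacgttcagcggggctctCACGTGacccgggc

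The BCL2L1 window held the TATA box TATAAA at 208 and 125 bases upstream of the start and no other match. The BCL2A1 window held the STAT motif TTCNNNGAA at 168 bases and TATAAA at 70 bases upstream. The BCL2L11 window held the FOXO motif GTAAACA at 223 bases, the GC box GGGCGG at 118, 91 and 75 bases and the CCAAT box at 58 bases upstream, the last as its reverse complement. The BAX window held the E-box CACGTG at 138, 93, 45 and 14 bases, the CCAAT box at 203 and 148 bases, as its reverse complement, and the GC box at 52 bases upstream. No match overlapped another. Of 35116 windows of the same length, the TATA box was in 10.7%, the STAT motif in 6.57%, the FOXO motif in 2.98%, the GC box in 42.6%, the CCAAT box (CCAAT) in 32% and the E-box in 6.34%. The AP-1 motif TGANTCA, in 6.57% of all windows, was in none of the 4. A match is a description of the letters and not a shown binding site. RefSeq windows were matched for 9 of the 10 members, all but MCL1.

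Replicates 1 and 2 of each group were on the smaller array type (8 arrays) and replicate 3 on the larger (4 arrays), whose 4 readings are called the third pair here and carry no test. Values are probe-set intensity, a linear brightness, and differences are in log2 of the intensity plus 16, resistant minus parental unless stated. Of the 24 probe sets on the smaller type, 19 passed the filter on dim readings (a group mean above intensity 74.0), at least 1 for each of the 10 genes. The 5 left out were 3 of the 4 for BCL2, 1 of the 5 for MCL1 and 1 of the 2 for BCL2L11. On the 8 arrays the whole range of readings was brighter in the DU145 lines (5th percentile 35.8 to 38.6, median 184 to 205) than in the 22Rv1 lines (11.5 to 12.3 and 59.3 to 69.1), so levels are compared between the lines by rank, after rescaling or on the larger arrays. Of the 19 tested probe sets, 8 passed the filter through the DU145 lines alone, as did 33.6% of all.

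The label of the cells was checked with marker genes. Prostate luminal markers, 5 of 8 listed with values, summed on the larger arrays to 1217.5 in 22Rv1-DR and 1139.5 in 22Rv1, against 120.5 in DU145-DR and 146 in DU145. KLK2, which androgen drives in prostate cells, was at 18.3 in DU145-DR and 22.6 in DU145 on these arrays. Their 5th percentile was 10.9 to 11, so KLK2 was near the floor in DU145 cells. The sum over 5 markers of epithelium was lower in the resistant lines. It was 8563 to 8901 in DU145-DR and 19794 to 23631 in DU145, and 8183 to 8330 in 22Rv1-DR and 13568 to 14448 in 22Rv1. Not every gene of the 5 fell. KRT8 passed in neither line, and on the third pair it read 5149 in DU145-DR and 3743 in DU145. In 22Rv1 cells KRT8 read 2165 in 22Rv1-DR and 1808 in 22Rv1 on that pair. EPCAM did not pass in 22Rv1-DR (0.03). CDH1, EPCAM, KRT18 and KRT19 fell in DU145-DR, the KRT18 call being lost without any 1 of 5 of the arrays (adjusted p 0.0555 to 0.126), and CDH1 and KRT19 fell in 22Rv1-DR. Markers of fibroblasts summed to 3000 to 4147 in 22Rv1-DR and 176 to 186 in 22Rv1, nearly all of it LUM (2778 and 3984 in 22Rv1-DR, 28.8 and 41.9 in 22Rv1). On the third pair the sum was 1910.5 in 22Rv1-DR and 965 in 22Rv1, with LUM at 1698 in 22Rv1-DR and 729 in 22Rv1. LUM rose in 22Rv1-DR, and DCN did (0.93, adjusted p = 0.0259) but not without any 1 array of the 22Rv1 lines (0.187 to 0.244), and it differed by -0.68 on the third pair. Only 2 of the 6 listed markers of leukocytes and 2 of the 5 of endothelium were tested, and these were called in neither resistance comparison. The part of these shifts in the values below was not tested.

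In resistant DU145 cells 1 of the 3 tested BCL2L1 probe sets and the only BCL2A1 probe set passed as lower than in parental DU145 cells. No member rose past the test. Among the 19 tested probe sets of the family 2 fell, 0 rose and 17 did not pass, a share close to the 8.99% of all 14813 probe sets tested that changed (4.52% rose and 4.47% fell). With the 2 arrays of a group set against the 2 of the other, 9 of 19 member probe sets did not overlap, against 40.9% of all. The median difference was 0.03 over the 19 and -0.01 over all probe sets. The test was limma's moderated test with Benjamini-Hochberg adjustment over all 14813 probe sets and a threshold of 0.05. An unadjusted p under 0.05 was reached by 6 of the 19, against 22.3% of all probe sets. The 2 calls became 0 without DU145 replicate 2, 1 without DU145 replicate 1 or any array of the 22Rv1 lines, and 4 without DU145-DR replicate 2.

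In resistant 22Rv1 cells no member passed the same test: 0 of 19 probe sets rose and 0 fell, while 4.07% of all probe sets changed (2.19% rose and 1.88% fell). Of the 19, the 8 that met the filter only in the DU145 lines had group means of 12.3 to 36.5 in 22Rv1-DR and 22Rv1 and so were dim there: both of BID, 2 of BCL2L1 and 1 each of BCL2, MCL1, BCL2A1 and BCL2L11. The 19 differences lay between -0.64 (BAX) and 0.44 (PMAIP1), with adjusted p from 0.194 to 1. Of these, 5 did not overlap between the groups, against 49.7% of all probe sets, and 1 had an unadjusted p under 0.05, against 14.6% of all. The median difference was 0.04 over the 19 and 0.01 over all. With the replicate number as a block in the model, 2 of the 19, both of BAX, passed as lower, where 19.7% of all probe sets passed.

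**Figure D1:**
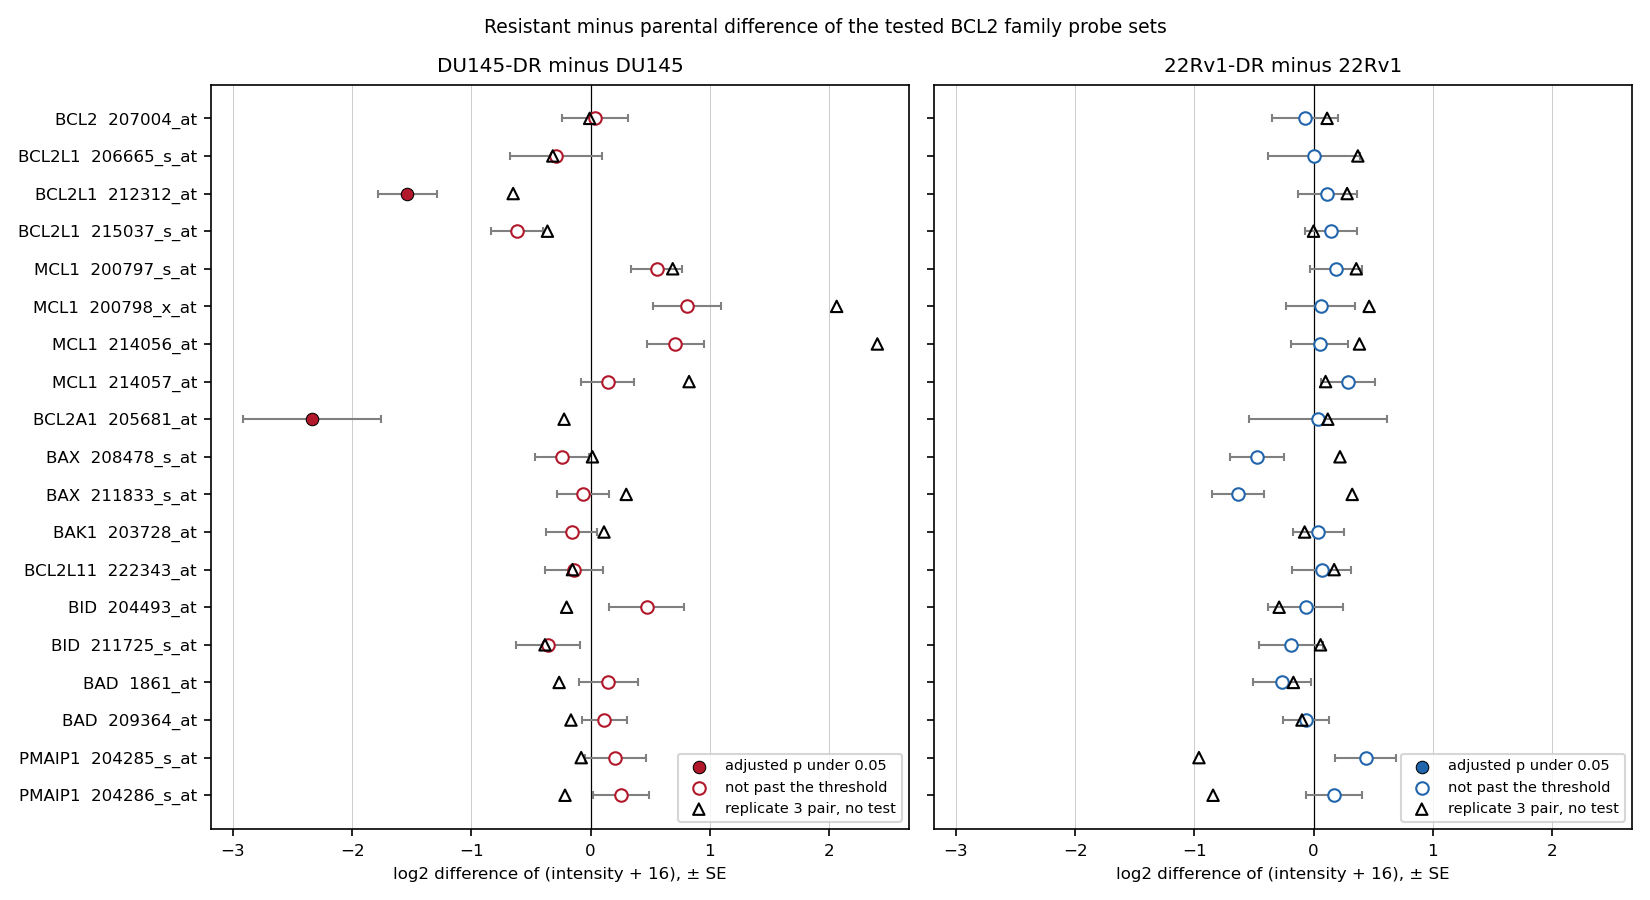
Resistant minus parental differences of the 19 tested BCL2 family probe sets, in log2 of intensity plus 16, with DU145 cells in the left panel and 22Rv1 cells in the right panel. Circles are limma estimates over replicates 1 and 2 with their standard error, filled where the adjusted p was under 0.05, and triangles are the third pair; only BCL2L1 212312_at (-1.54) and BCL2A1 205681_at (-2.33) in DU145 cells are filled.

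Among the anti-apoptotic members, BCL2L1 passed as lower in DU145-DR on 1 of its 3 tested probe sets and had no call in 22Rv1-DR. The gene, which encodes BCL-XL, lies on chromosome 20 (31664452 to 31723963, GRCh38.p14, as are the positions below). Probe set 212312_at read 338 and 465 in DU145-DR, against 1090 and 1278 in DU145. The groups did not overlap, and the means were 401 ± 89.7 in DU145-DR and 1184 ± 133 in DU145 (SD, n = 2 each). BCL2L1 212312_at thus fell by 1.54 ± 0.25 (SE) on the log2 scale (adjusted p = 0.00799), with -1.64 between the arrays of replicate 1 and -1.43 between those of replicate 2. The third pair had 410 in DU145-DR and 653 in DU145, a difference of -0.65.

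The other BCL2L1 probe sets were lower in DU145-DR as well, but did not pass. Probe set 215037_s_at read 67.2 and 70.0 in DU145-DR and 91.1 and 141 in DU145 (-0.62 ± 0.22, adjusted p = 0.131). With the replicate number as a block its adjusted p was 0.0233, in a model where 33.2% of all probe sets passed. Probe set 206665_s_at read 175 and 78.2 in DU145-DR and 207 and 105 in DU145, with overlap between the groups (-0.29 ± 0.38, adjusted p = 0.816). In DU145-DR 215037_s_at was dim, at the 22.7th and 28.8th percentiles of its arrays. It passed the filter through parental DU145 alone (mean 116, against 68.6 in DU145-DR), which favours finding it lower in DU145-DR. All 4 BCL2L1 probe sets of the larger arrays, 231228_at included, were lower in DU145-DR, by -0.65 to -0.32. There 206665_s_at was dim as well, at 30.3 in DU145-DR and 41.6 in DU145. The call on 212312_at was lost without DU145 replicate 2 (adjusted p = 0.0569), with only the 4 DU145 arrays in the fit (0.0555) and with all 12 arrays in 1 fit (-1.24, 0.0696).

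In 22Rv1 cells no BCL2L1 probe set passed. Probe set 212312_at read 223 and 162 in 22Rv1-DR and 199 and 152 in 22Rv1, overlapping ranges (0.12 ± 0.25, adjusted p = 1), and 280 in 22Rv1-DR against 228 in 22Rv1 on the third pair. BCL2L1 215037_s_at was dim, at 22.0 and 20.5 in 22Rv1-DR and 17.8 and 17.5 in 22Rv1, without overlap (0.15 ± 0.22, adjusted p = 0.995), and 206665_s_at differed by 0.00 ± 0.38 (adjusted p = 1). The change in 22Rv1 minus the change in DU145 was 1.65 ± 0.35 for 212312_at (adjusted p = 0.0311), the only one of the 19 past the threshold in that test, where 6.46% of all probe sets were (3.58% upward and 2.88% downward). Over the family the difference between the lines' changes ran from -0.75 to 2.37, the highest being BCL2A1, which was at the floor in 22Rv1 cells. Without DU145 replicate 1 or 2 the adjusted p was 0.066 or 0.102, without 22Rv1 replicate 1 or 2 it was 0.0736 or 0.144, without 22Rv1-DR replicate 1 or 2 it was 0.133 or 0.0605, and over all 12 arrays the difference was 1.41 (0.269). With the replicate block, BCL2L1 215037_s_at (0.76, adjusted p = 0.0378), BID 204493_at (-0.54, 0.0303) and BAX 211833_s_at (-0.57, 0.0453) passed too, in a model where 29.0% of all probe sets did.

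BCL2A1, on chromosome 15 (79960892 to 79971196), encodes BFL1/A1, a short-lived member that NF-kappaB induces. Its only probe set, 205681_at, read 288 and 50.2 in DU145-DR, against 596 and 820 in DU145. Both resistant arrays were below both parental arrays, but they lay far apart: the difference was -1.01 for replicate 1 and -3.66 for replicate 2. BCL2A1 fell by 2.33 ± 0.58 (adjusted p = 0.0421), and the third pair read 86.2 in DU145-DR and 103 in DU145, a difference of -0.22. The fall was -3.43 without DU145-DR replicate 1 (adjusted p = 0.000179) and -1.24 without DU145-DR replicate 2 (0.0204). The call was lost without DU145 replicate 1 or 2 (0.136 or 0.199), without either 22Rv1 array (0.0648 each), without either 22Rv1-DR array (0.0689 each), with a pseudocount of 1 (0.061), with no filter on dim probe sets (0.0788), with only the 4 DU145 arrays in the fit (0.16) and with all 12 arrays (0.0751).

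In 22Rv1 cells BCL2A1 sat at the array floor, at 10.3 and 15.9 in 22Rv1-DR and 10.3 and 14.3 in 22Rv1 (0.04 ± 0.58, adjusted p = 1). No direction can be read from such readings. The difference between the lines' changes in BCL2A1 did not pass limma's test (2.37 ± 0.82, adjusted p = 0.147) and is not read further, because of that floor.

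MCL1, on chromosome 1 (150574558 to 150579610), encodes a labile protein that binds BIM, NOXA and BAK1. Probe set 200797_s_at stood at the 96.9th to 99.5th percentile of the shared probe sets on all 12 arrays, 200798_x_at at the 75.2nd to 95.5th and 214056_at at the 24.4th to 71.1st, so the rank depends on the probe set. In DU145-DR probe set 200797_s_at read 13777 and 11268, against 7486 and 9608 in DU145. The groups did not overlap, and the difference of 0.55 ± 0.22 did not pass (adjusted p = 0.169). Probe set 200798_x_at, whose name marks it as open to cross-hybridization, read 3666 and 2120 in DU145-DR and 1333 and 1885 in DU145 (0.81 ± 0.29, adjusted p = 0.136). Probe set 214056_at read 232 and 160 in DU145-DR and 96.3 and 129 in DU145 (0.71 ± 0.24, adjusted p = 0.118). Neither overlapped between the groups, while 214057_at did, at 254 and 204 in DU145-DR and 247 and 169 in DU145 (0.14 ± 0.22, adjusted p = 0.866).

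All 6 MCL1 probe sets were higher in DU145-DR on the third pair, by 0.05 to 2.41. There 200797_s_at read 13494 in DU145-DR and 8364 in DU145, 200798_x_at 2896 in DU145-DR and 680 in DU145, and 214056_at 362 in DU145-DR and 55.3 in DU145. These probe sets report on the same gene and are not replicates. Without DU145-DR replicate 2, MCL1 200798_x_at (1.20, adjusted p = 0.0218) and MCL1 214056_at (0.96, 0.0441) passed. In 22Rv1 cells the tested MCL1 probe sets differed by 0.05 to 0.29 (adjusted p 0.750 to 1), and 200797_s_at read 3566 and 4012 in 22Rv1-DR and 3062 and 3591 in 22Rv1, with overlap. The MCL1 probe set left out as dim, 200796_s_at, read 80.4 and 65.3 in DU145-DR and 58.9 and 53.1 in DU145, and 227175_at, on the larger arrays alone, was near the floor in DU145 cells.

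BCL2 itself, on chromosome 18 (63123346 to 63320090), had 3 of its 4 probe sets left out as dim. Its tested probe set, 207004_at, read 140 and 102 in DU145-DR and 155 and 86.2 in DU145 (0.03 ± 0.28, adjusted p = 0.994), and 30.3 and 28.1 in 22Rv1-DR and 36 and 27.1 in 22Rv1 (-0.07 ± 0.28, adjusted p = 1). The ranges of 207004_at overlapped in both lines. Probe set 203685_at, left out as dim and so not tested, went opposite ways in the lines. On the smaller arrays it did not overlap between the groups in either line. It differed by 0.44 in DU145 cells (0.43 and 0.45 for replicates 1 and 2). In 22Rv1 cells it differed by -0.26 (-0.27 and -0.25). In DU145 it stood at the 3.4th and 10.4th percentiles, near the floor. The third pair had the same signs. It read 58.9 in DU145-DR and 17.5 in DU145 (1.16), and 45.9 in 22Rv1-DR and 92.4 in 22Rv1 (-0.81). The remaining 2, 203684_s_at and 207005_s_at, differed by -0.19 and 0.04 in the DU145 pair and by 0.17 each in the 22Rv1 pair.

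**Figure D2:**
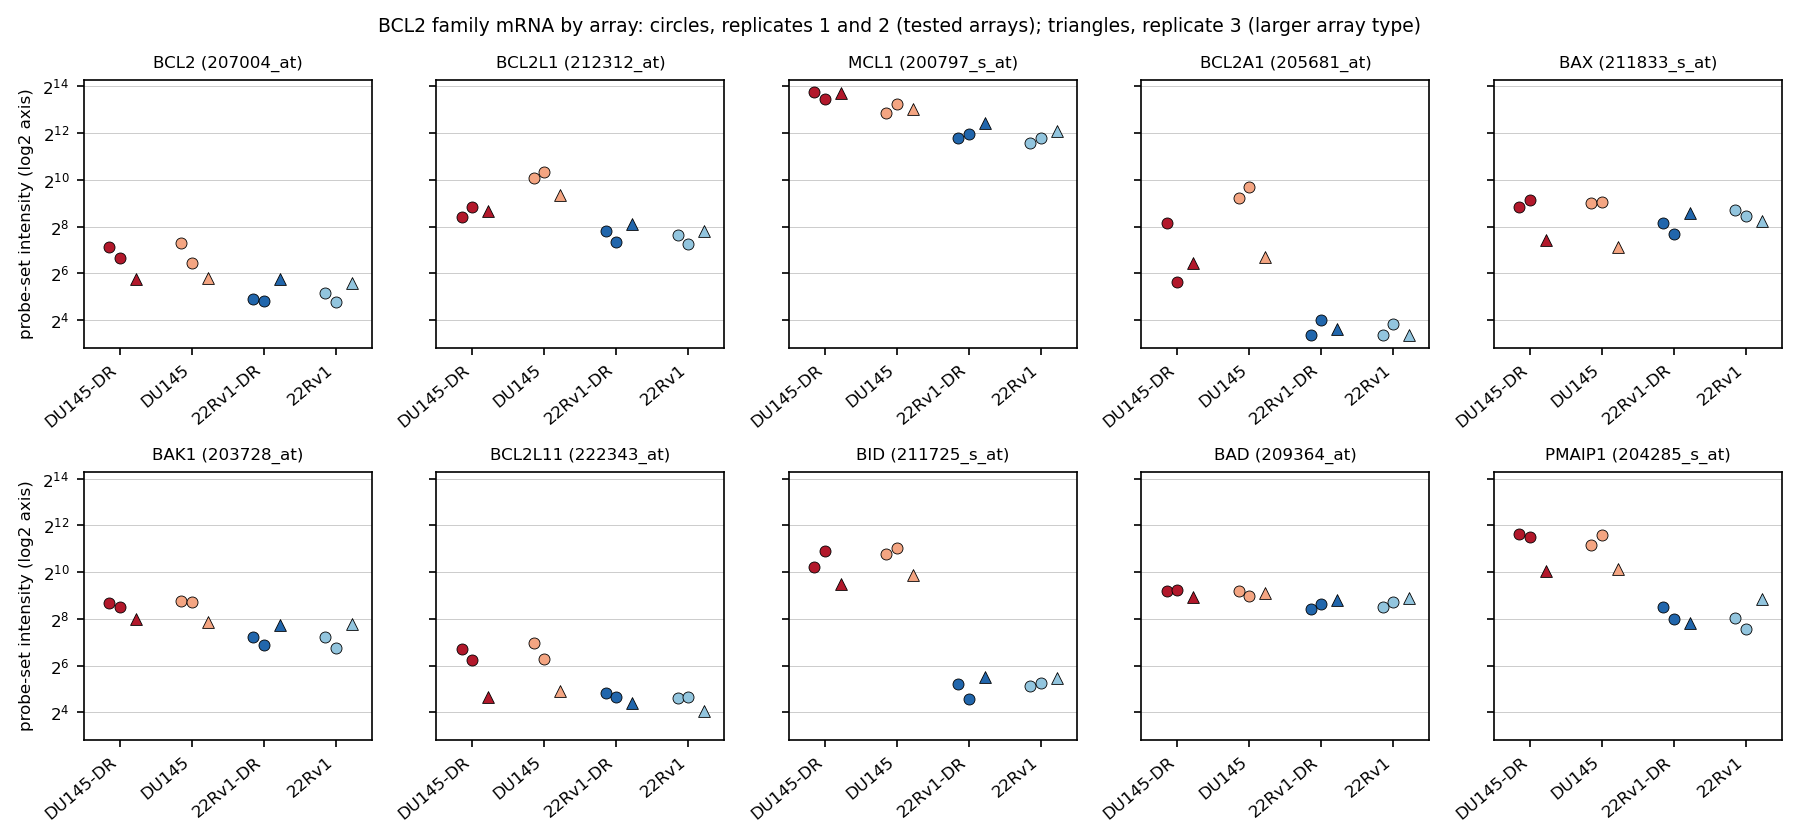
Intensity of 1 probe set for each BCL2 family gene on every array, on a log2 axis, with DU145-DR, DU145, 22Rv1-DR and 22Rv1 from left to right in each panel. Circles are replicates 1 and 2 and triangles are replicate 3 on the larger array type; BCL2L1 212312_at lies at 338 and 465 in DU145-DR and at 1090 and 1278 in DU145, while BID 211725_s_at differs between the lines and not between resistant and parental cells.

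The effectors did not change past the test in either line. BAX, on chromosome 19 (48954875 to 48961798), read 458 and 560 in DU145-DR and 523 and 537 in DU145 with 211833_s_at (-0.06 ± 0.22, adjusted p = 0.978), overlapping ranges, and 165 and 150 in DU145-DR and 199 and 179 in DU145 with 208478_s_at, with no overlap (-0.24 ± 0.23, adjusted p = 0.676). DU145 cells are known to lack BAX protein, which these readings do not bear on. In 22Rv1-DR probe set 211833_s_at read 284 and 205, against 416 and 355 in 22Rv1, with no overlap (-0.64 ± 0.22, adjusted p = 0.194). BAX 208478_s_at read 234 and 172 in 22Rv1-DR and 331 and 246 in 22Rv1, also with no overlap (-0.47 ± 0.23, adjusted p = 0.405).

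Both BAX probe sets passed in 22Rv1 cells once replicate numbers were a block (adjusted p = 0.0167 for 211833_s_at and 0.0181 for 208478_s_at), a model in which 19.7% of all probe sets passed. The third pair went the other way: 211833_s_at read 380 in 22Rv1-DR and 300.2 in 22Rv1 (0.32), and 208478_s_at 215 in 22Rv1-DR and 182 in 22Rv1 (0.22). BAK1 (probe set 203728_at), on chromosome 6 (33572552 to 33580276), read 410 and 360 in DU145-DR and 434 and 428 in DU145 (-0.16 ± 0.21, adjusted p = 0.821), without overlap. In 22Rv1-DR it read 148 and 117, against 149 and 109 in 22Rv1, with overlap (0.04 ± 0.21, adjusted p = 1).

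Among the BH3-only members, 3 of the 7 BCL2L11 probe sets were lower in both resistant lines on the larger arrays, which had 1 array per group and carry no test. The gene lies on chromosome 2 (111120914 to 111168445). On the smaller arrays its probe sets were dim: 222343_at read 106 and 74.5 in DU145-DR and 125 and 78.8 in DU145 (-0.14 ± 0.25, adjusted p = 0.898), and 28.6 and 25.5 in 22Rv1-DR and 24.6 and 25.5 in 22Rv1 (0.07 ± 0.25, adjusted p = 1). The larger arrays carry 5 more BCL2L11 probe sets. Of these, 225606_at was at 142 in DU145-DR against 714 in DU145 and at 224 in 22Rv1-DR against 437 in 22Rv1.

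BCL2L11 225606_at was therefore lower by -2.21 in the DU145 pair and by -0.91 in the 22Rv1 pair. Probe set 1555372_at read 52.0 in DU145-DR and 180 in DU145 (-1.53), and 52.7 in 22Rv1-DR and 99.0 in 22Rv1 (-0.74). Probe set 1558143_a_at read 58.1 in DU145-DR and 144 in DU145 (-1.11), and 82.1 in 22Rv1-DR and 122 in 22Rv1 (-0.49). The same 3 probe sets were the lowest, relative to the parental array, in both lines. Of all 7 BCL2L11 probe sets 6 were lower in the DU145 pair and 4 in the 22Rv1 pair; 1553096_s_at and 1553088_a_at differed by -0.41 and -0.27 in the DU145 pair and by 0.04 and 0.07 in the 22Rv1 pair. Probe set 208536_s_at lay at the floor, between 11.8 and 13.8 on the 4 arrays. A difference of at least 1 downward was seen in 5.51% of all 41032 probe sets in the DU145 pair, which 3 of the 33 member probe sets reached, all of them BCL2L11. In the 22Rv1 pair it was seen in 2.49%, and 0 of the 33 reached it. Upward, 3 of the 33 reached it in the DU145 pair, 1 of BCL2 and 2 of MCL1, where 5.97% of all probe sets did, and 0 in the 22Rv1 pair, where 1.66% did.

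**Figure D3:**
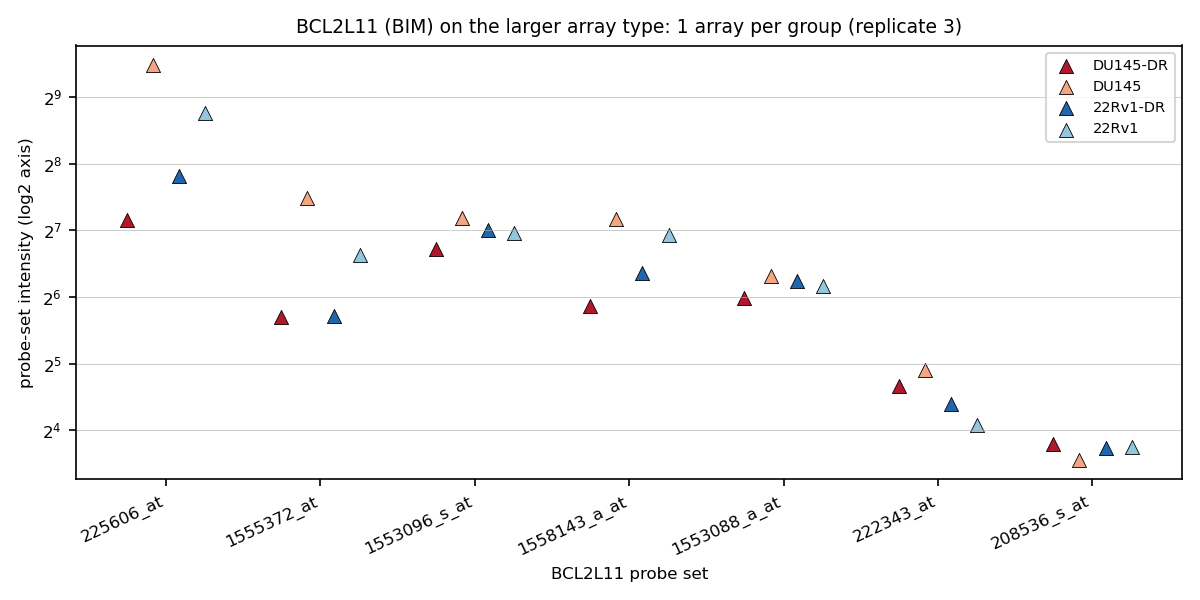
Intensity of the 7 BCL2L11 probe sets on the 4 larger arrays (replicate 3, 1 array per group), on a log2 axis, with DU145-DR, DU145, 22Rv1-DR and 22Rv1 from left to right for each probe set. Probe sets 225606_at, 1555372_at and 1558143_a_at are lower in the resistant line of both pairs, and the others lie closer together.

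BID, cleaved by caspase-8 to link death receptors to the mitochondrion, lies on chromosome 22 (17734138 to 17774665). Its probe sets went opposite ways in DU145 cells. BID 204493_at read 465 and 820 in DU145-DR and 343 and 568 in DU145 (0.47 ± 0.31, adjusted p = 0.470; 0.0141 with the replicate block, where 33.2% of all probe sets passed). BID 211725_s_at read 1176 and 1924 in DU145-DR and 1771 and 2120 in DU145 (-0.36 ± 0.27, adjusted p = 0.538). Both overlapped between the groups. On the third pair these probe sets differed by -0.20 and -0.38 and 227143_s_at by 0.23, so no direction held across them. In the 22Rv1 lines BID 204493_at was near the floor, at 15.1 and 16.3 in 22Rv1-DR and 15.6 and 18.9 in 22Rv1 (-0.06 ± 0.31, adjusted p = 1), and 211725_s_at was at 36.8 and 24.1 in 22Rv1-DR and 34.8 and 38.3 in 22Rv1 (-0.19 ± 0.27, adjusted p = 0.983).

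BAD, whose BH3 domain binds BCL2 and BCL-XL, lies on chromosome 11 (64269828 to 64284704). BAD 209364_at read 580 and 605 in DU145-DR and 584 and 508 in DU145 (0.12 ± 0.19, adjusted p = 0.877), and 345 and 399 in 22Rv1-DR and 360 and 419 in 22Rv1 (-0.06 ± 0.19, adjusted p = 1). Both lines' ranges overlapped. BAD 1861_at differed by 0.15 ± 0.25 in DU145 cells (adjusted p = 0.879) and by -0.26 ± 0.25 in 22Rv1 cells (adjusted p = 0.850). On the third pair BAD 209364_at differed by -0.16 and BAD 1861_at by -0.26 in DU145 cells, opposite in sign to the fit. In 22Rv1 cells they differed by -0.10 and -0.17. On that pair BAD 232660_at read 60.5 in DU145-DR and 45.3 in DU145, and 40.2 in 22Rv1-DR and 64 in 22Rv1.

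PMAIP1, a p53 target whose product NOXA binds MCL1, lies on chromosome 18 (59899996 to 59904305). PMAIP1 204285_s_at read 3214 and 2856 in DU145-DR and 2257 and 3040 in DU145 (0.21 ± 0.26, adjusted p = 0.790). In 22Rv1-DR it read 362 and 256, against 260 and 187 in 22Rv1 (0.44 ± 0.26, adjusted p = 0.561), and the ranges overlapped in both lines. PMAIP1 204286_s_at differed by 0.26 ± 0.23 in DU145 cells (adjusted p = 0.653) and by 0.17 ± 0.23 in 22Rv1 cells (adjusted p = 0.974). The third pair went the other way in both lines. In DU145 cells it differed by -0.08 for 204285_s_at and by -0.21 for 204286_s_at. In 22Rv1 cells 204285_s_at was at 226 in 22Rv1-DR and 455 in 22Rv1 (-0.96), and 204286_s_at at 148 in 22Rv1-DR and 278 in 22Rv1 (-0.84).

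By role, the third pair of DU145 had 8 of 15 anti-apoptotic probe sets higher and 7 lower, 3 of 3 effector probe sets higher and 12 of 15 BH3-only probe sets lower, where 53.4% of all probe sets were lower. In the third pair of 22Rv1, 12 of 15 anti-apoptotic probe sets were higher and 2 lower. There 2 of 3 effector probe sets were higher and 11 of 15 BH3-only probe sets lower, where 44.2% of all were lower. Of the 15 BH3-only probe sets, 7 belong to BCL2L11. Of the 15 anti-apoptotic ones, 6 belong to MCL1, 4 to BCL2 and 4 to BCL2L1. Probe sets of 1 gene are not separate observations, and each group had 1 array. For 10 of the 19 tested probe sets in DU145 cells, and 11 in 22Rv1 cells, the sign of the third pair matched that of the fit.

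The patterns most like the 2 called ones were sought among all tested probe sets, by the root mean square difference over the 8 arrays after each was centred on its own mean. For BCL2L1 212312_at the nearest genes were GATAD1 (distance 0.163 on the log2 scale), RPS6KA5 (0.193) and CTH (0.197). Their DU145-DR minus DU145 differences were -1.33, -1.95 and -1.42. Such genes were chosen for likeness on these arrays, so like differences there follow from the choice. On the third pair the differences were -1.30, -2.19 and -1.28, and -0.65 for BCL2L1 212312_at. For BCL2A1 the nearest genes were SERPINA1 (0.280), DKK3 (0.440) and BNC1 (0.483), with differences of -2.30, -2.05 and -1.86. On the third pair the differences were -4.81, -3.16 and -0.32, and -0.22 for BCL2A1.

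Other genes of the pathway were read from 4 lists, each gene by 1 probe set, beside 8.99% of all probe sets changed in DU145-DR and 4.07% in 22Rv1-DR; counts this small say nothing of a list as a whole. Among other BCL2 relatives, 16 genes of which 10 were tested, 1 fell and 0 rose in DU145-DR, and 1 rose and 0 fell in 22Rv1-DR. The gene that fell was BIK, a BH3-only member of the endoplasmic reticulum, at 251 and 254 in DU145-DR and 458 and 523 in DU145 (-0.91 ± 0.18, adjusted p = 0.0167; the third pair -2.82). In 22Rv1 cells BIK read 146 and 144 in 22Rv1-DR and 246 and 229 in 22Rv1, which did not pass (-0.65 ± 0.18, adjusted p = 0.0942, and 0.00952 with the replicate block; the third pair -2.19). In DU145 cells the BIK call was lost without DU145 replicate 1 or 2 (0.051 or 0.0804) and with only the 4 DU145 arrays in the fit (0.137).

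The relative that rose was HRK, a BH3-only member best known from neurons, at 150 and 120 in 22Rv1-DR and 27.1 and 28.4 in 22Rv1 (1.78 ± 0.24, adjusted p = 0.00428; the third pair 1.40). In DU145 cells HRK read 180 and 156 in DU145-DR and 131 and 79.3 in DU145, which did not pass (0.64 ± 0.24, adjusted p = 0.162, and 0.025 with the replicate block; the third pair 1.25). The HRK call in 22Rv1 cells was lost without 22Rv1-DR replicate 1 (0.0532). The list's median difference was -0.24 in DU145 cells and 0.07 in 22Rv1 cells.

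Of 10 partners at the outer membrane, all tested, BAG3, a co-chaperone of HSP70, rose in DU145-DR (1.03 ± 0.22, adjusted p = 0.0264; the third pair 0.48) and 0 changed in 22Rv1-DR by limma (0 with an unadjusted p under 0.05). The BAG3 call was lost without DU145 replicate 1 (0.118), without DU145-DR replicate 2 (0.0537), without any 1 array of the 22Rv1 lines (0.057 to 0.0598), with only the 4 DU145 arrays (0.155) and with all 12 arrays (0.286). Of 8 tested genes of the apoptosome and of proteins released from mitochondria, 0 changed in either line by limma, and 1 in each had an unadjusted p under 0.05. Of 25 tested regulators of the members, 2 rose and 0 fell in DU145-DR, and 2 rose and 1 fell in 22Rv1-DR. JUN, a subunit of AP-1, rose in both lines, at 1675 and 1218 in DU145-DR against 501 and 600 in DU145 (1.35 ± 0.24, adjusted p = 0.0126) and at 478 and 626 in 22Rv1-DR against 215 and 274 in 22Rv1 (1.12 ± 0.24, adjusted p = 0.0423). On the third pair JUN differed by 0.47 in DU145 cells and by 0.74 in 22Rv1 cells. The JUN call was lost in DU145 cells without DU145 replicate 1 (0.0834), with only the 4 DU145 arrays (0.078) and with all 12 arrays (0.125). In 22Rv1 cells it was lost without either DU145 array (0.0644) or any 1 array of the 22Rv1 lines (0.114 to 0.349), after quantile normalization (0.092) or a shift to 1 median (0.0763), with a pseudocount of 64 (0.0529), with no filter on dim probe sets (0.0549) and with all 12 arrays (0.316).

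MYC, which induces BIM and NOXA in several cell types, rose in DU145-DR (1.20 ± 0.19, adjusted p = 0.00759) and differed by 0.10 on the third pair. STAT5A, an activator of BCL2L1 in blood cells, rose in 22Rv1-DR (1.36 ± 0.25, adjusted p = 0.0204; the third pair 0.65), and its change differed between the lines (1.61 ± 0.36, adjusted p = 0.0364). E2F1, a cell cycle regulator that induces BH3-only genes, fell in 22Rv1-DR (-0.79 ± 0.18, adjusted p = 0.046) and differed by 0.02 on the third pair. The MYC call was lost without DU145 replicate 1 (0.0513), with only the 4 DU145 arrays (0.0787) and with all 12 arrays (0.315). The STAT5A call in 22Rv1-DR was lost without any 1 array of the 22Rv1 lines (0.0985 to 0.177), with a pseudocount of 64 (0.0518) and with all 12 arrays (0.41). The E2F1 call was lost without any 1 array of the 22Rv1 lines (0.223 to 0.416), without either DU145 array (0.0631), after a shift to 1 median (0.0722), with a pseudocount of 1 (0.05) and with all 12 arrays (adjusted p = 1). The difference in STAT5A between the lines was lost without any 1 array of DU145, 22Rv1 or 22Rv1-DR (0.0647 to 0.147), with a pseudocount of 64 (0.0571) and with all 12 arrays (0.372). The medians of the outer membrane, apoptosome and regulator lists were 0.13, -0.14 and 0.13 in DU145 cells and -0.04, 0.02 and 0.01 in 22Rv1 cells.

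After rescaling, parental 22Rv1 was lower than parental DU145 for both tested probe sets of BID and of PMAIP1. It was also lower for BCL2A1 and for 1 of 3 of BCL2L1, and higher for both of BAX. Both BID probe sets and BCL2A1 had passed the filter through the DU145 lines alone. That filter, set before rescaling, favours finding them lower in 22Rv1. Without rescaling the median difference over all probe sets was -1.34 (22Rv1 minus DU145), and 83.6% of all probe sets passed without rescaling (3.36% higher and 80.2% lower), with 17 of the 19 members lower and 1 higher. After quantile normalization, which brought the median to -0.04, 42.5% of all probe sets passed (21.3% higher and 21.3% lower), and of the 19 members 3 were higher, 6 lower and 10 did not pass, 9 in all and so close to the share over all probe sets. The values below are quantile normalized, beside the third pair, where the arrays had like floors and the median of all probe sets differed by -0.01.

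BID encodes the link from death receptors to the mitochondrion. BID 211725_s_at stood at the 39.8th and 42.6th percentiles of the 22Rv1 arrays and the 88.0th and 87.5th of the DU145 arrays. It was lower in 22Rv1 by -3.87 ± 0.20 (adjusted p = 1.37e-05; -3.98 on the third pair), and BID 204493_at, near the floor in 22Rv1, by -2.54 ± 0.27 (adjusted p = 0.000338; -3.12). PMAIP1 204285_s_at stood at the 71.2nd and 67.3rd percentiles in 22Rv1 and at the 90.8th and 91.3rd in DU145 (-2.20 ± 0.24, adjusted p = 0.000345; -1.28 on the third pair). PMAIP1 204286_s_at differed by -1.81 ± 0.17 (adjusted p = 0.000186; -1.26).

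BCL2A1 stood at the 1.0th and 12.6th percentiles in 22Rv1, the floor, and at the 71.2nd and 74.2nd in DU145; it passed as lower in 22Rv1 (adjusted p = 0.0021), and readings at the floor give no size for the difference. BCL2L1 212312_at was lower in 22Rv1 by -1.34 ± 0.18 (adjusted p = 0.00104; -1.46 on the third pair), while 215037_s_at (-0.66 ± 0.23, adjusted p = 0.0538) and 206665_s_at (-0.83 ± 0.33, adjusted p = 0.0829) did not pass. Probe set 212312_at stood at the 60.4th and 64.4th percentiles in DU145-DR, beside the 66.8th and 64th in 22Rv1 and the 81.5th and 80.8th in DU145. On the larger arrays it stayed higher in DU145-DR (73.2nd percentile) than in 22Rv1 (64.7th), with DU145 at the 81.3rd. BAX was higher in 22Rv1, with 208478_s_at at the 75.2nd and 71.6th percentiles in 22Rv1 and the 49.4th and 49.2nd in DU145 (1.95 ± 0.17, adjusted p = 0.000121; 1.54 on the third pair). BAX 211833_s_at differed by 0.86 ± 0.16 (adjusted p = 0.00474; 1.04). BAX 211833_s_at was lower in 22Rv1 without rescaling.

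BAD 209364_at passed as higher in 22Rv1 (0.82 ± 0.20, adjusted p = 0.0145), but it was lower without rescaling and differed by -0.17 on the third pair, so its direction is not settled. BAD 1861_at (0.18), BCL2 (-0.09), BAK1 (-0.28), BCL2L11 (-0.13) and the 4 MCL1 probe sets (-0.79 to 0.60) did not pass. On the third pair, 28 of the 33 member probe sets were lower in 22Rv1 than in DU145 and 5 higher, where 51.7% of all probe sets were lower. Of the 33, 7 belong to BCL2L11 and 6 to MCL1, so they are not separate observations, and each line had 1 array. Some of the differences were small (-0.02 for BCL2 203684_s_at, -0.06 for BAK1) and others large (-3.98 for BID 211725_s_at).

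**Figure D4:**
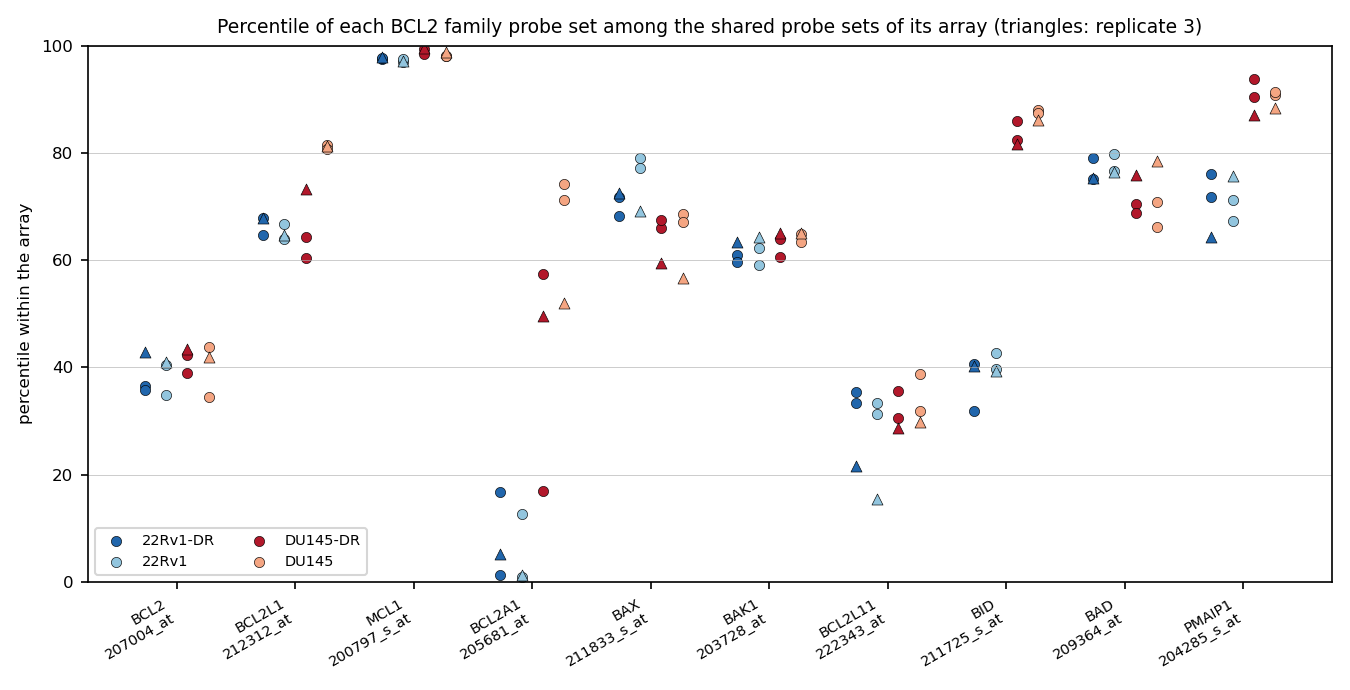
Percentile of 1 probe set for each BCL2 family gene among the probe sets that the array types share, on each array, with 22Rv1-DR, 22Rv1, DU145-DR and DU145 from left to right for each gene. Circles are replicates 1 and 2 and triangles replicate 3; BID, PMAIP1 and BCL2A1 lie lower in the 22Rv1 lines, and MCL1 lies at the 96.9th percentile or above on all 12 arrays.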

How the data were processed

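Total RNA of the 4 groups was measured on Affymetrix arrays, 8 of a smaller type and 4 of a larger one. Per the labels, groups and replicate numbers come from sample titles. The authors deposited a linear intensity for each probe set (7.52 to 31216 on the 8 arrays, 6.73 to 30786 on the 4). The submitters' processing notes name MAS5 and RMA; the sources used here do not state which step each did or how arrays were scaled. Precision is limited by how few arrays there are.

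Kept were probe sets with 1 gene symbol (19064 and 41091), not those with several (1043 and 1801), those with none (2108 and 11721) or, of Y-linked or X-inactivation genes, 31 and 59. The deposited intensity was put on the log2 scale after adding 16. Probe sets above the 40th percentile of all values in the mean of at least 1 group (14813) were fitted over the 8 arrays in R 4.3.3 with limma 3.58.1 (lmFit, then eBayes; 4 residual and 4.38 prior degrees of freedom), a term for each group, Benjamini-Hochberg adjustment over all of them and a threshold of 0.05; the code was tested on simulated data. The tables stayed separate, and the third pair has no test. Every member probe set is named whatever its result; of other lists at most 4 called genes per line are named, and for each called member the 3 nearest patterns. The members, lists and tests were chosen with earlier results of these data known. Deviations of replicate 1 from its group mean correlated across probe sets between a line's resistant and parental arrays (0.716 in DU145 cells, 0.792 in 22Rv1 cells; across lines 0.111 and 0.0789), so the numbers pair arrays within a line, and a block for each line and number was an alternative (2 residual and 3.37 prior degrees of freedom). Other alternatives were scaling, pseudocount, filter, probe sets per gene, arrays in the fit, the prior and leaving out each array.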

Additional observations from a re-analysis of the deposited data

Results flagged for a closer look

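The change of BCL2L1 212312_at differed between the lines: the 22Rv1 change minus the DU145 change was 1.65 ± 0.35 on the log2 scale (adjusted p = 0.0311, limma's test of the difference itself). The probe set fell in DU145-DR (-1.54) and did not pass in 22Rv1-DR (0.12); on the third pair, the same difference was 0.93, with no test. It was lower in 2 of 2 DU145-DR arrays than in both DU145 arrays. Other values of this test, and the arrays without which the call was lost, stand with the results.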

How the results depend on the processing

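Counts of probe sets past the threshold moved with the model. With the replicate block they were 4921, 2923 and 4294 of 14813 for DU145-DR, 22Rv1-DR and the difference between the lines, against 1331, 603 and 957 without it, and 4, 2 and 4 of the 19 member probe sets, against 2, 0 and 1. The block could not be used between the parental lines, since it lies within a line. It changed no call of a member other than those given with the results. With only the 4 arrays compared, 280 probe sets passed in DU145-DR (0 members) and 1319 in 22Rv1-DR. With all 12 arrays in 1 fit, 554 passed in DU145-DR (0 members), 272 in 22Rv1-DR, 325 in the difference (0 members) and 7248 in 22Rv1 against DU145. A pseudocount of 1 or no filter on dim probe sets each left 1 called member in DU145-DR. For 22Rv1 against DU145, 12380 probe sets passed without rescaling, 6302 (9 members) after quantile normalization, 5472 (9 members) after a shift to 1 median and 8163 of 9788 (9 of 10 members) with 1 probe set per gene. Leaving out 1 array at a time gave 533 to 1809 probe sets (0 to 4 members) in DU145-DR, 245 to 1001 (0 to 0 members) in 22Rv1-DR, 337 to 1437 (0 to 2 members) in the difference and 10905 to 12817 (15 to 18 members) in 22Rv1 against DU145. The lowest counts came without DU145 replicate 1 for DU145-DR and without 22Rv1 replicate 1 for 22Rv1-DR and the difference. Turned signs for 22Rv1 against DU145 were those of BAD 1861_at (0.18 after quantile normalization, 0.33 after the median shift), BAD 209364_at (0.82 and 0.96), BAX 211833_s_at (0.86 and 0.99), MCL1 214057_at (0.60 and 0.65) and MCL1 200797_s_at (0.087 after the median shift). Of 2128 values of single probe sets under alternatives, for members and for other genes called in a list, 1947 kept their side of the threshold without turning a call; 68 of these turned sign while past it in neither fit. In 143 a call was lost and in 29 one was gained. The cause of these changes was not tested. Readings near the floor, such as BCL2A1 in 22Rv1 cells, limit what could be seen.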

Other observations

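Among regulators of the members, STAT3, a transcription factor known to induce BCL2L1 and MCL1, changed differently in the lines (22Rv1 change minus DU145 change 1.67 ± 0.41, adjusted p = 0.0494). STAT3 read 1252 and 1629 in DU145-DR and 2336 and 3743 in DU145, with no overlap, and 296 and 228 in 22Rv1-DR and 191 and 137 in 22Rv1, with no overlap either. On the third pair it read 803 in DU145-DR and 2574 in DU145, and 410 in 22Rv1-DR and 304 in 22Rv1. It passed in neither resistance comparison alone (-1.04 ± 0.29, adjusted p = 0.0622, and 0.63 ± 0.29, adjusted p = 0.378; with the replicate block 0.0027 and 0.0161). The difference was past the threshold by little, and was lost without DU145 replicate 2 (0.133), without DU145-DR replicate 1 (0.0769), without any 1 array of the 22Rv1 lines (0.098 to 0.196), after a shift to 1 median (0.0685), with a pseudocount of 1 (0.0575) or 64 (0.0515), with no filter on dim probe sets (0.0705) and with all 12 arrays (0.113).

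Also among the relatives, BNIP3L, a mitophagy receptor with a BH3-like stretch, was lower in DU145-DR without passing (-0.81 ± 0.22, adjusted p = 0.0551; -1.13 on the third pair). It was chosen for naming after its values were seen. In 22Rv1 cells its difference was 0.25 ± 0.22 (adjusted p = 0.814), and -0.48 on the third pair.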
